A study of Homo sapiens with 4 samples.

Results

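The distal open chromatin of AMO1 cells that overexpress PHF19 is described here, in the library whose title carries the prefix IFN set against the one without it. AMO1 is a long-established line of malignant plasma cells, taken from multiple myeloma. Overlapping peaks of these libraries were merged on chromosomes 1 to 22 into 49845 regions, and the 36402 regions more than 2500 bp from both ends of every protein-coding gene are the distal ones. The other 13443 are called near gene ends. The study made 4 ATAC-seq libraries, 1 per group: IFN-prefixed PHF19 overexpression, PHF19 overexpression, IFN-prefixed empty vector and empty vector. All cells had been transfected with a PCDH vector, with or without PHF19, and the labels give the prefixed and unprefixed libraries the same genotype and treatment. They do not say what the prefix stands for. Each comparison rests on 1 library per group, so no replicate error is available, nothing was tested, and the spread between cultures is unknown.

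ATAC-seq counts DNA fragments released by the Tn5 transposase, which inserts preferentially where nucleosomes are sparse. Open regions away from gene ends are largely enhancers and insulators, bound by sequence-specific factors, and they differ more between cell types than gene starts do. PHF19 is a Polycomb-like protein that brings Polycomb repressive complex 2, the histone H3 lysine methyltransferase that keeps developmental genes silent, to CpG-rich DNA. Interferons signal through JAK kinases and STAT proteins, whose complexes with IRF factors bind GAAA-rich elements at antiviral genes. In bulk chromatin, a region open in fewer cells and a region less open in each cell cannot be told apart.

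Of the sequences that lie in distal regions, 4 starts of long non-coding RNA genes are shown because their regions differed in height or carry an element of a pathway discussed here, and they were chosen after their values were seen. Each line gives 250 bases before the start to 50 bases after it, on the plus strand, 5′ to 3′, from the RefSeq table on GRCh38.p14. The capitals mark the matches found on the plus strand. LINC01038 at chr13:79804136-79804435 has 2 overlapping matches to GAAA and GAAA separated by any 2 bases, the core of the interferon-stimulated response element. LINC03125 at chr20:23147853-23148152 has a match to TGANTCA, the AP-1 element. MIR3142HG at chr5:160468001-160468300, the host gene of miR-146a, has a match to GGG and TTTCC separated by any 2 bases, an NF-kappaB element. RUNX3-AS1 at chr1:24930207-24930506 has no match to any of these.
LINC01038: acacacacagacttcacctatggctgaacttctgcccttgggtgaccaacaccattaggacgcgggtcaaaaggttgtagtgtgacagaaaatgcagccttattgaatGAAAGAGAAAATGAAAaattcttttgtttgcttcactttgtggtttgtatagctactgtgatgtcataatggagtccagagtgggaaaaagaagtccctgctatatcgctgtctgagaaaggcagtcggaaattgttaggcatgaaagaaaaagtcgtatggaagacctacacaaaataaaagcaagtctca
LINC03125: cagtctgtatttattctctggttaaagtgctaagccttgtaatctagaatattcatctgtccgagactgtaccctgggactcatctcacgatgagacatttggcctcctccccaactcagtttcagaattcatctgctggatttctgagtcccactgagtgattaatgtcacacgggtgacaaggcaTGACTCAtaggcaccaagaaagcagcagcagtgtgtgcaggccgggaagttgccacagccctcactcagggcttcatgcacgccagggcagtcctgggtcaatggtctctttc
MIR3142HG: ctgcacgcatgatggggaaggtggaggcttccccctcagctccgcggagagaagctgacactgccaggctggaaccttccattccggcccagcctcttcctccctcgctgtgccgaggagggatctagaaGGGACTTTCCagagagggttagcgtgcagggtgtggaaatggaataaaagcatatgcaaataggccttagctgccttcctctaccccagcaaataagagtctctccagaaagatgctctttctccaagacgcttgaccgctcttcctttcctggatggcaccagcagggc
RUNX3-AS1: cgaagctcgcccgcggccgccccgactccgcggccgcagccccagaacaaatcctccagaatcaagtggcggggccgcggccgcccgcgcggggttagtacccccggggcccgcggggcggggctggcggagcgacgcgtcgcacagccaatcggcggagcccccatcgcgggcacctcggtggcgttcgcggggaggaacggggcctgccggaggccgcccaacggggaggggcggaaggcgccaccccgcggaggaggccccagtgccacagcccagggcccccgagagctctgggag

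The region over the LINC01038 start had 32 fragments at its summit with the IFN-prefixed PHF19 overexpression library and 16 with PHF19 overexpression, a centred log2 ratio of 1.04 with a counting interval from 0.13 to 2.00. At LINC03125 the counts were 13 fragments in the IFN-prefixed PHF19 library and 30 in the PHF19 library, a log2 ratio of −1.17 (interval −2.23 to −0.18). The MIR3142HG start was tall in all libraries, with 326 fragments in the IFN-prefixed PHF19 library and 279 in the PHF19 library (log2 ratio 0.26, interval 0.03 to 0.50). The first of these starts was higher with the prefix, LINC03125 lower and MIR3142HG slightly higher, and none has a second library to check it. RUNX3-AS1, inside RUNX3, had 100 fragments in the IFN-prefixed PHF19 library and 140 in the PHF19 library, with a log2 ratio of −0.45; the empty vector pair gave −0.46. Both strands of the 674 non-coding starts in distal regions and of all 35116 start windows in the table were searched. The interferon-stimulated response element core occurred in 4.45% of the distal starts and 3.57% of all windows. The NF-kappaB letters occurred in 3.12% of the distal starts and 1.91% of all windows, TGANTCA in 12.9% of the distal starts and 7.71% of all windows, and the STAT element, TTC and GAA separated by any 3 bases, in 6.08% of the distal starts and 7.66% of all windows. These matches describe letters in the windows and say nothing of binding.

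Distal regions also hold 41 miRNA hairpins, in 39 regions. The mature sequences of those best known in lymphoid and neural cells are shown in RNA letters, 5′ to 3′, from the RefSeq table, with the seed (bases 2 to 8) in capitals. miR-132-3p and miR-212-3p come from 1 region and share a seed, and so do miR-148a-3p and miR-152-3p from regions on chromosomes 7 and 17. miR-9-5p is encoded at 3 places, each within a distal region.
hsa-miR-132-3p: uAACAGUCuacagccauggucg
hsa-miR-212-3p: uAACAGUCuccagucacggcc
hsa-miR-148a-3p: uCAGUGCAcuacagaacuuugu
hsa-miR-152-3p: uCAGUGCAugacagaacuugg
hsa-miR-9-5p: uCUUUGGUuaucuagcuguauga

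The region of MIR132 and MIR212 had 76 fragments in the IFN-prefixed PHF19 library and 82 in the PHF19 library, a log2 ratio of −0.07 (interval −0.54 to 0.40). For the seed pair on different chromosomes the ratios had opposite signs, with −0.20 at MIR148A (99 fragments in the IFN-prefixed PHF19 library, 117 in the PHF19 library) and 0.28 at MIR152 (118 fragments in the IFN-prefixed PHF19 library, 100 in the PHF19 library). Both intervals include 0. The MIR9-1 region, the tallest of that family, had 352 fragments in the IFN-prefixed PHF19 library and 409 in the PHF19 library (log2 ratio −0.18). MIR9-2 had a ratio of −0.14 and MIR9-3 one of −0.40, so all 3 lay below 0, each with an interval that includes 0. The empty vector pair gave −0.34 at MIR9-1 (interval −0.49 to −0.19) but 0.36 at MIR9-2 (interval 0.05 to 0.68). Neither empty vector library had a peak at MIR9-3. Of the 37 hairpin regions with a peak in both libraries, none passed 2-fold, and their median was −0.05.

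The libraries held 16.4 M (mega) fragments with the IFN prefix and PHF19 overexpression, 18.2 M with PHF19 overexpression, 65.9 M with the IFN prefix and empty vector and 27.4 M with the empty vector. The header of the 65.9 M list names a different project folder, and weaker peaks could be called in it. As a check of the vector, a narrow peak inside PHF19 at chr9:120857950-120858284 had 120 fragments in the IFN-prefixed PHF19 library and 144 in the PHF19 library and no peak in either empty vector library. It lies 2299 bp from the gene's end and is therefore not distal. Of 8 plasma cell marker genes, SDC1 and IRF4 among them, 8 had a peak near an end in every library. No library had a peak near an end of MS4A1, a B cell marker, or of the myeloid markers LYZ and CSF1R. T and NK cell markers had such a peak at 2 of 4 genes in each PHF19 overexpression library, at 4 in the IFN-prefixed empty vector library and at 3 in the empty vector library.

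Relative to all shared regions, distal regions with a peak in both libraries showed a slight excess on the higher side with the IFN prefix. A peak was present in 31554 distal regions in the IFN-prefixed PHF19 library and in 30048 in the PHF19 library, and 25200 had one in both. Height is the largest number of fragments over a base of the region, per M fragments of the library, and its median was 1.89 per M in the IFN-prefixed PHF19 library and 1.65 per M in the PHF19 library. The log2 ratio of heights was centred on the median of all 37448 shared regions, which was 0.11 before centring. The 25200 distal regions are among these, so a distal median near 0 follows from the centring and does not show equal heights. The median centred ratio of distal regions was 0.04, which is also the value of regions with equal counts, and 1340 regions had that value. Those with equal counts included, 13896 of the 25200 (55.1%) were above 0. Counts of regions above 0 in this pair are to be read beside that share. Near gene ends, where the median height was 6.29 per M in the IFN-prefixed PHF19 library and 6.09 per M in the PHF19 library, the median ratio was −0.05; without centring these medians were 0.15 for distal regions and 0.06 near gene ends.

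**Figure D1:**
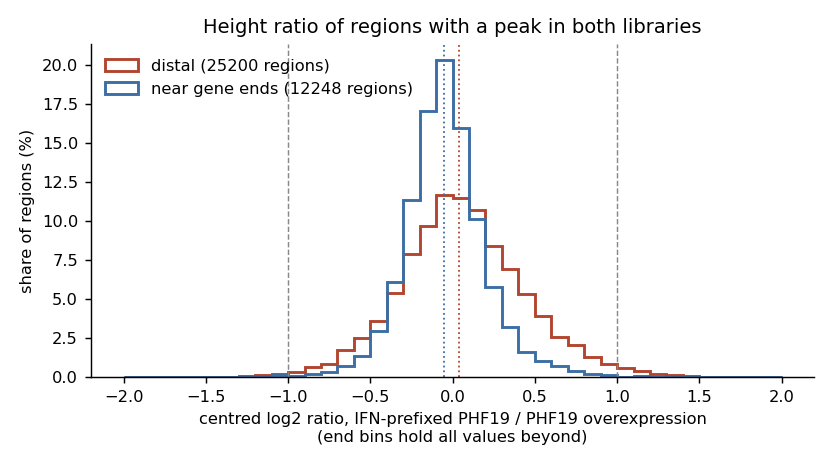
Distribution of the centred log2 ratio of heights, IFN-prefixed PHF19 overexpression over PHF19 overexpression, for the 25200 distal regions and the 12248 regions near gene ends with a peak in both libraries. Dotted lines are medians (0.04 and −0.05), dashed lines mark 2-fold, and the y axis is the share of the regions of each kind in bins of log2 ratio; the distal distribution is the wider one and extends farther to the higher side.

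The ratios of distal regions were more widely spread, with 5% below −0.56 and 5% above 0.73, against −0.43 and 0.37 near gene ends. A 2-fold difference was passed by 400 shared distal regions on the higher side, which is 1.59% of the 25200, and by 138 on the lower side, which is 0.548%. Over all shared regions these shares were 1.12% higher and 0.446% lower, and near gene ends 20 regions were 2-fold higher (0.163%) and 29 were 2-fold lower (0.237%). Of the distal ones, 291 on the higher side (1.15%) and 94 on the lower side (0.373%) also had a counting interval that leaves out 0. The split depended on the scaling: without centring it was 674 higher and 82 lower, with the median near gene ends as centre 518 higher and 102 lower, and with the trend by height removed 271 higher and 227 lower. Just inside the 2-fold rule lay a region of ARHGAP26 with 37 fragments in the IFN-prefixed PHF19 library and 19 in the PHF19 library, and just outside it one of ARID5B with 35 fragments in the IFN-prefixed PHF19 library and 18 in the PHF19 library.

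The ratio also went with height, and distal regions are lower than those near gene ends. Among distal regions the median was 0.04 under 1 fragment per M, 0.09 from 1 to 2, 0.04 from 2 to 4, 0.00 from 4 to 8 and −0.03 above 8 per M. Near gene ends the medians in the same classes were 0.04, −0.01, −0.04, −0.06 and −0.06. Distal regions lay at or above gene-end regions in each class. With the trend by height removed, distal regions exceeded gene-end regions by 0.03, against 0.09 before.

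The empty vector pair, which shares no library with this comparison, had the same order. Its distal median was 0.08 and its gene-end median −0.17 (−0.01 and −0.26 without centring), and above 8 per M its medians were −0.14 for distal regions and −0.24 near gene ends, the lowest of the 5 height classes. Its libraries differ in depth by more than those with PHF19, and what depth or the project folder contributes was not tested.

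**Figure D2:**
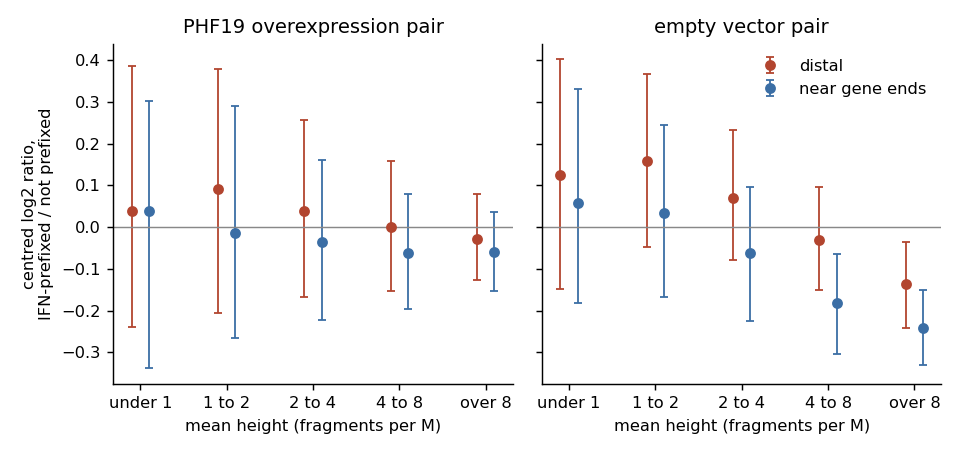
Median centred log2 ratio with the 25% to 75% range of regions (bars), by class of mean height in fragments per M, for distal regions and regions near gene ends. Left, IFN-prefixed PHF19 overexpression over PHF19 overexpression; right, IFN-prefixed empty vector over empty vector; among distal regions the median is lowest in the tallest class in each pair, and the distal medians lie at or above the gene-end medians.

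The share of distal regions past 2-fold on the higher side was larger far from genes than close to them, and by distance the median ran from 0.02 to 0.08. Inside protein-coding genes lay 17894 distal regions (49.2%), 4182 (11.5%) lay between them but inside a long non-coding RNA gene, and 14326 (39.4%) lay between genes. The median was 0.04 in each of these 3 classes. By distance from the nearest gene end it was 0.02 from 2.5 to 10 kb, 0.04 from 10 to 50 kb, 0.06 from 50 to 100 kb, 0.08 from 100 to 500 kb and 0.07 beyond 500 kb, and 2929 of 5656 shared regions were above 0 in the nearest class and 389 of 648 in the farthest. The share of shared regions 2-fold higher was 1.54% inside protein-coding genes, 2.04% inside long non-coding RNA genes and 1.51% between genes. By distance this share was 0.884% from 2.5 to 10 kb, 1.36% from 10 to 50 kb, 2.01% from 50 to 100 kb, 2.37% from 100 to 500 kb and 3.70% beyond 500 kb. The regions were lower the farther out they lay, with a median of 2.26 per M in the IFN-prefixed PHF19 library and 2.03 per M in the PHF19 library in the nearest class. In the farthest class it was 1.28 per M in the IFN-prefixed PHF19 library and 1.10 per M in the PHF19 library, and the part of low height in this share was not tested.

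No chromosome stood far from the others. The median of distal regions was between 0.00 and 0.07 on the 22 autosomes, and above 0 on 22 of them with the centring used. In 533 bins of 5 Mb with at least 10 shared distal regions, the bin median was above 0 in 408 and ranged from −0.18 on chromosome 11 to 0.35 on chromosome 4. That highest bin, from 130 to 135 Mb, held 11 distal regions, 9 of them above 0, and no shared region near a gene end. In 396 bins with at least 10 regions of both kinds, distal regions had the higher median in 355 (89.7%), so the difference between the kinds was not made by a few stretches.

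The regions farthest on the higher side were single sites scattered over chromosomes 2, 4, 5, 6, 12, 14 and 18. The first lies inside SEL1L3 at chr4:25767866-25768477, where 37 fragments were counted in the IFN-prefixed PHF19 library and 8 in the PHF19 library, a log2 ratio of 2.25 (interval 1.12 to 3.56). The IFN-prefixed empty vector library had 45 fragments there, and the empty vector library no peak. With no height there for the empty vector library, the direction in that pair was not measured. A region inside ASAP2, an activator of Arf GTPase hydrolysis, at chr2:9370912-9371657 had 133 fragments in the IFN-prefixed PHF19 library and 47 in the PHF19 library (log2 ratio 1.54, interval 1.05 to 2.05). The empty vector pair had 243 fragments in the IFN-prefixed library and 118 in the other, a ratio of −0.14, so this site stood out with PHF19 overexpression and not with the empty vector; whether the pairs differ was not tested.

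The region near OXA1L, a mitochondrial inner membrane insertase, had 48 fragments in the IFN-prefixed PHF19 library and 15 in the PHF19 library (log2 ratio 1.72), and −0.27 in the empty vector pair. The other 4 named by the same rule lie inside IER3IP1, an endoplasmic reticulum protein, and nearest to TENT5A, a poly(A) polymerase, PRDM9, the methyltransferase that places meiotic recombination, and ATP23, a mitochondrial protease. Their ratios ran from 1.54 to 1.90, on 29 to 51 fragments in the IFN-prefixed PHF19 library and 8 to 18 in the PHF19 library. The empty vector pair was also above 0 near ATP23 (0.93, interval 0.11 to 1.85), TENT5A (0.48, interval 0.06 to 0.92) and PRDM9 (0.43, interval −0.31 to 1.21). At IER3IP1 the empty vector library had no peak. All intervals of the PHF19 pair at these higher regions rest on few fragments in the PHF19 library, except at ASAP2.

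On the lower side the largest difference was in the immunoglobulin heavy chain locus at chr14:106348668-106349259, a region whose nearest protein-coding gene, TMEM121, is 818470 bp away. It had 12 fragments in the IFN-prefixed PHF19 library and 55 in the PHF19 library, a log2 ratio of −2.16 (interval −3.19 to −1.24). The IFN-prefixed empty vector library had 157 fragments and the empty vector library 67, a ratio of 0.05. Relative to its library's depth, the IFN-prefixed PHF19 library was thus the low one of the 4, with 0.733 per M against 3.02 per M with PHF19 overexpression, 2.38 per M in the IFN-prefixed empty vector library and 2.45 per M in the empty vector library. Inside CHN1, which encodes the Rac GTPase-activating protein chimerin, the region at chr2:174990115-174990519 had 10 fragments in the IFN-prefixed PHF19 library and 41 in the PHF19 library (log2 ratio −2.00, interval −3.16 to −0.97).

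A region near CPSF6, a subunit of the pre-mRNA cleavage factor, had 13 fragments in the IFN-prefixed PHF19 library and 49 in the PHF19 library (log2 ratio −1.87), with 0.18 in the empty vector pair. The region near STRIP2 was 1.04 per M in the IFN-prefixed PHF19 library and 2.58 per M in the PHF19 library, while both empty vector libraries were taller, at 5.72 per M with the prefix and 5.59 per M without. The other 4 lay near NEFL, the neurofilament light chain gene, HIF3A, a hypoxia-inducible factor subunit, TENT4A and GALNTL5, with ratios from −1.85 to −1.37. Of the 8 lower regions the empty vector pair had a ratio below 0 at NEFL alone (−0.49, interval −1.18 to 0.23).

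**Figure D3:**
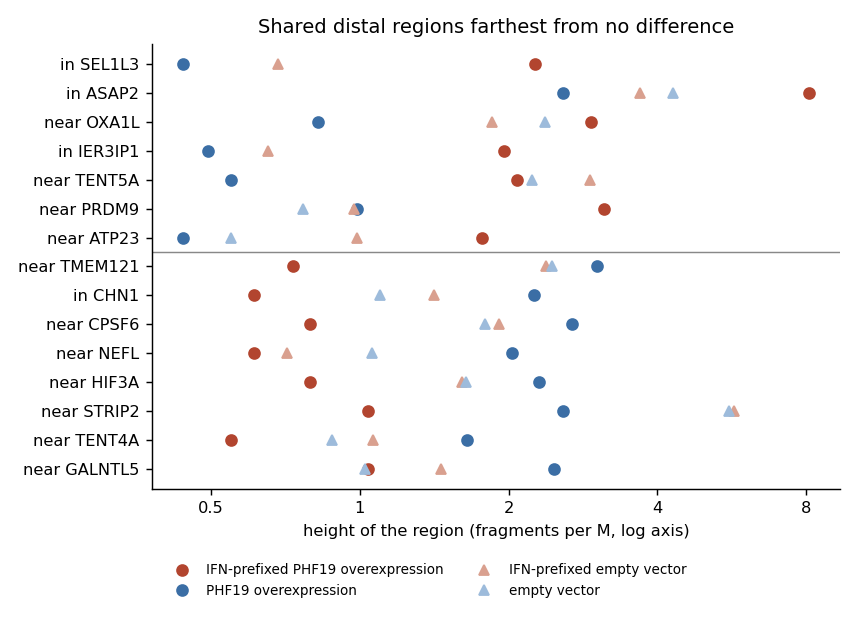
Heights in fragments per M (log axis) of 15 of the shared distal regions whose counting interval lies farthest from 0, 7 higher ones above the line and the 8 lower ones below it. Circles are the PHF19 overexpression libraries, with the IFN prefix and without, and triangles the empty vector libraries, with the prefix and without; a missing triangle means no peak, and the triangles of most lower regions lie close together.

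Over all such regions, the empty vector pair leaned to the higher side whichever way the PHF19 pair went. Of the 25200 shared distal regions, 23042 had a peak in both empty vector libraries, and 60.3% of these had a ratio above 0 there, with a median of 0.07. Of the 400 regions 2-fold higher with PHF19 overexpression, 318 could be read in the empty vector pair: 248 of them (78.0%) were above 0, their median was 0.29, and 13 were 2-fold higher and 0 were 2-fold lower. Of the 138 regions 2-fold lower, 118 could be read: 81 (68.6%) were above 0, their median was 0.18, and 2 were 2-fold higher and 0 were 2-fold lower. The lower regions of the PHF19 pair were therefore not lower as a set in the empty vector pair, and the higher ones leaned the same way in it at a smaller size. These groups were formed on low and uneven counts, with a median of 1.59 per M in the IFN-prefixed PHF19 library and 0.658 per M in the PHF19 library for the higher regions, and of 0.672 per M in the IFN-prefixed PHF19 library and 1.40 per M in the PHF19 library for the lower ones.

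The tallest shared distal regions differed little. The tallest of all lies inside SDC1, which encodes the plasma cell surface proteoglycan syndecan-1 (CD138), at chr2:20206667-20209322, with 1994 fragments in the IFN-prefixed PHF19 library and 2283 in the PHF19 library. That is 121.8 per M in the IFN-prefixed PHF19 library and 125.3 per M in the PHF19 library, a centred log2 ratio of −0.16 (interval −0.24 to −0.07), and the empty vector pair gave −0.30. Of the 10 tallest, 9 lie on chromosome 2, at SDC1, LAPTM4A, ID2, YWHAQ and KIDINS220, and their ratios ran from −0.26 near ID2 to 0.13 inside KIDINS220. ID2 encodes an inhibitor of helix-loop-helix factors, and its region at chr2:8678475-8679305 had 53.2 per M in the IFN-prefixed PHF19 library and 58.6 per M in the PHF19 library.

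Distal regions with a peak in 1 library alone were low and narrow, and most had a peak in an empty vector library. The IFN-prefixed PHF19 library alone had a peak in 6354 distal regions (17.5%, 95% Wilson interval 17.1% to 17.9%), and the PHF19 library alone in 4848 (13.3%, interval 13.0% to 13.7%). Near gene ends these shares were 4.93% for the IFN-prefixed PHF19 library and 3.96% for the PHF19 library, and over all regions 14.1% for the IFN-prefixed PHF19 library and 10.8% for the PHF19 library. The median height was 0.794 per M for those of the IFN-prefixed PHF19 library and 0.686 per M for those of the PHF19 library, where the lowest summit that was called had 0.489 per M in the IFN-prefixed PHF19 library and 0.439 per M in the PHF19 library. The excess of the IFN-prefixed PHF19 library depended on list length, as its list held 44664 peaks and that of the PHF19 library 42941. With lists of equal length, 5360 distal regions had a peak in the IFN-prefixed PHF19 library alone and 5354 in the PHF19 library alone.

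Of the 6354 regions of the IFN-prefixed PHF19 library alone, 2749 (43.3%) had a peak in both empty vector libraries, 2182 (34.3%) in the deeper IFN-prefixed one only, 45 in the empty vector one only and 1378 (21.7%) in neither. Of the 4848 regions of the PHF19 library alone, 2338 (48.2%) had a peak in both, 1556 (32.1%) in the IFN-prefixed one only, 38 in the empty vector one only and 916 (18.9%) in neither. The IFN-prefixed empty vector library thus had a peak in most regions of either kind. At 2 per M or more there were 259 regions of the IFN-prefixed PHF19 library alone and 133 of the PHF19 library alone, and 248 of the 259 and 124 of the 133 had a peak in an empty vector library. Under 400 bp wide were 52.1% of the 259 and 62.4% of the 133, against 1.78% of shared distal regions of that height.

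Of the 6 tallest regions of the IFN-prefixed PHF19 library alone, 5 lay within 5000 bp of a taller peak of the same library. Inside SDC1, at chr2:20221901-20222226, 937 fragments were counted, 57.2 per M, in a peak only 326 bp wide and 535 bp from a peak of 5150 fragments, and its fold enrichment over local background in the authors' list was 1.21. The empty vector libraries had a broad peak over the same place with its summit elsewhere. At ADAM17, the protease that sheds cell surface proteins, the region had 185 fragments in the IFN-prefixed PHF19 library and 434 in the IFN-prefixed empty vector library, and no peak in the PHF19 or empty vector libraries. POLR3C, a subunit of RNA polymerase III, had the same pattern, with 128 fragments in the IFN-prefixed PHF19 library and 336 in the IFN-prefixed empty vector library. DGKG, MEF2D and LMNA had peaks in both empty vector libraries, and the DGKG region, 16600 bp from the next peak, had a fold enrichment of 14.6.

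Among regions of the PHF19 library alone, the tallest lay near SPAG4, with 110 fragments, 6.04 per M, and the next near RPS21, a ribosomal protein gene, with 105 fragments. The region near AMPH lies in the T cell receptor gamma locus and had 102 fragments in the PHF19 library, 356 in the IFN-prefixed empty vector library and 132 in the empty vector library. One near RUNX3, a lymphoid transcription factor gene, had 93 fragments in the PHF19 library and a peak of 445 fragments in the IFN-prefixed empty vector library and one of 218 in the empty vector library. The region inside SLC38A12 and one on chromosome 1 at 125180085, whose nearest protein-coding gene is 3716956 bp away, completed the 6, and the region on chromosome 1 was 305 bp wide. None of these 6 was absent from the IFN-prefixed empty vector list, so their absence from the IFN-prefixed PHF19 list is not shared by both prefixed libraries. The regions near SPAG4, RPS21 and RUNX3 and inside SLC38A12 lay 2427 to 3813 bp from a taller peak of the PHF19 library.

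Protein-coding genes held most of what could be counted by gene. There were 7020 genes with a distal region between their ends, with a median of 2 regions each, and 1481 genes with at least 3 shared ones. The gene median was above 0 in 902 of these (60.9%), with a range from −0.66 to 1.09. It was 0.5 or more in 46 genes and −0.5 or less in 10; without centring these counts were 105 and 2, and with the trend by height removed 33 and 16. All shared regions lay on the higher side in 159 genes and on the lower side in 73.

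SAMD4A, which encodes an RNA-binding repressor of translation, had the most shared regions among the 10 higher genes named, with 6 of 6 above 0 and a median log2 ratio of 0.72. Its lowest ratio was 0.25, at a region with 29 fragments in the IFN-prefixed PHF19 library and 25 in the PHF19 library, and its highest was 1.56, at one with 23 fragments in the IFN-prefixed PHF19 library and 8 in the PHF19 library. In the empty vector pair the 4 of them that could be read were all above 0, with a median of 0.24. SH3RF2 had the highest median of these 10, 0.86 over 3 regions with 19 to 28 fragments in the IFN-prefixed PHF19 library and 13 to 15 in the PHF19 library. None of its regions had a peak in the empty vector library.

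CDKAL1, a tRNA-modifying enzyme gene, had a median of 0.83 but a tall region with 103 fragments in both PHF19 libraries, and its low ones had 26 and 24 fragments in the IFN-prefixed PHF19 library against 15 and 10 in the PHF19 library. PTPRO, a receptor tyrosine phosphatase, had 3 shared regions between 0.56 and 0.76, and 4 more with a peak in the IFN-prefixed PHF19 library alone against 1 in the PHF19 library alone. DAPK2, a death-associated protein kinase, had 4 of 4 above 0 with a median of 0.73. ATG5, needed to form autophagosomes, had 3 of 4 above 0 and a median of 0.68. RIC1, ZNF638, ITGA9, an integrin alpha chain, and CD109, a surface protein, had medians from 0.66 to 0.79 over 3 regions each. The mean height of the 10 genes was between 1.06 and 2.73 per M, so these are medians over few, mostly low regions.

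PCDH15, a protocadherin of sensory hair cells, had the lowest median among the lower genes named, −0.56, with 3 of 3 shared regions below 0 and 3 of 3 above 0 in the empty vector pair. AOPEP, an aminopeptidase, had −0.55 and SCN4A, the muscle sodium channel, −0.52, each with 3 of 3 below 0. At SCN4A the regions had 61, 20 and 89 fragments in the IFN-prefixed PHF19 library, against 90, 41 and 111 in the PHF19 library in the same order. HDAC7, a histone deacetylase active in lymphocytes, had the tallest regions of this group, with a mean of 5.64 per M in the IFN-prefixed PHF19 library and 6.09 per M in the PHF19 library and a median of −0.41. SBK1, DPP6, HOMER2, CUX2 and OR1J2 each had 1 region above 0 and medians from −0.50 to −0.37, and GLIS1 had 4 of 4 below 0 with a median of −0.42. Of the 10 lower genes, only OR1J2 held a region past 2-fold.

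**Figure D4:**
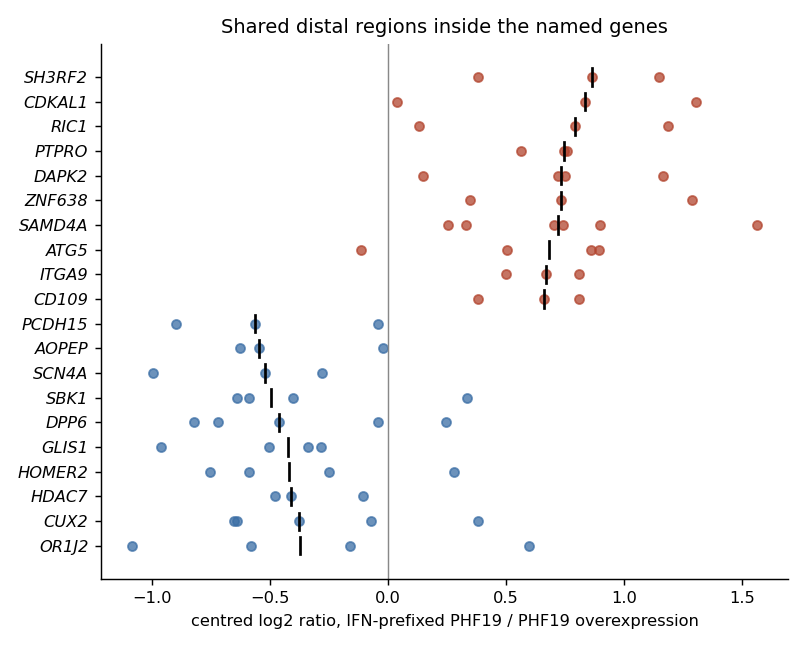
Centred log2 ratio, IFN-prefixed PHF19 overexpression over PHF19 overexpression, of each shared distal region (points) inside the 10 higher and 10 lower genes named, with the gene median as a bar. The 6 regions of SAMD4A all lie above 0, and CDKAL1 combines a region at 0.04 with one at 1.30.

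Genes with the most distal regions lay near the centre. PTPRN2, a phosphatase of secretory granules, held 34 distal regions, 21 of them shared, with a median of 0.04, and 4 in the IFN-prefixed PHF19 library alone against 9 in the PHF19 library alone. GSE1 held 33, 31 of them shared, with a median of 0.04, and OPCML, a neural adhesion molecule, 31 with a median of 0.01. NSMCE2, a SUMO ligase of the SMC complex, held 29, and 16 of its 20 shared regions were above 0 with a median of 0.19; the empty vector pair gave 15 of 20 above 0 and 0.16. DNM3, a dynamin, had a median of 0.26 over 15 regions, and CNTNAP2, CAMTA1 and CELF2 had medians of 0.16, 0.06 and 0.02 in that order. All of these genes but NSMCE2 span more than 500 kb. CNTNAP2, at 2304 kb, held 25 distal regions and NSMCE2, at 275 kb, held 29. Whether the number of regions goes with gene length was not tested.

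For the gene lists, a region was counted for the gene that holds it or, between genes, for the nearest one within 100 kb, which placed 21901 shared distal regions with a median of 0.04. Among interferon-stimulated genes, the antiviral effectors, 34 of 69 had a distal region. Of their 50 shared regions 34 were above 0, where 55.1% of all shared distal regions were, and the median was 0.18. Without centring it was 0.29, where that of all shared distal regions was 0.15. Only 1 of the 50 passed 2-fold higher and 0 passed 2-fold lower, where 1.59% of all shared distal regions were 2-fold higher. In the empty vector pair 47 of these regions had a median of −0.01. Upstream, the interferon signalling list of receptors, kinases, STAT and IRF genes had a median of 0.04 over 63 regions, the same as all placed regions, with 2 past 2-fold higher.

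GBP5, a guanylate-binding protein induced by interferon, had the largest median among the stimulated genes, 0.98 over 2 shared regions. One had 26 fragments in the IFN-prefixed PHF19 library and 17 in the PHF19 library, and the other 24 in the IFN-prefixed PHF19 library and 10 in the PHF19 library; a further region was called in each library alone. PARP9, an ADP-ribosyltransferase partner of DTX3L, had a tall region at chr3:122533703-122534449 with 151 fragments in the IFN-prefixed PHF19 library and 122 in the PHF19 library, a log2 ratio of 0.35 whose interval reaches from −0.01 to 0.70. Its other region, with 53 fragments in the IFN-prefixed PHF19 library and 33 in the PHF19 library, had 0.72 (interval 0.07 to 1.40), and 0.42 in the empty vector pair (interval 0.02 to 0.84). IFITM3, a membrane protein that hinders viral entry, had −0.30 and IFI6 −0.13. The taller IFI6 region had 132 fragments in the IFN-prefixed PHF19 library and 184 in the PHF19 library (log2 ratio −0.44, interval −0.77 to −0.11), so the list had members on both sides.

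IRF8, a transcription factor of B cells and myeloid cells, had the largest median of the signalling list, 0.53 over 6 shared regions, 5 of them above 0. The highest, at chr16:85987012-85987763, 64403 bp from the gene's nearest end, had 36 fragments in the IFN-prefixed PHF19 library and 15 in the PHF19 library (log2 ratio 1.30, interval 0.40 to 2.28). In the empty vector pair that region had −0.54 (interval −1.01 to −0.06), and the 6 regions a median of −0.08. SOCS3, a feedback inhibitor of JAK kinases, had −0.15.

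MHC class I and peptide loading genes, which present peptides and are induced by interferon in many cells, had a median of −0.15 over 21 regions with 7 above 0. It was −0.07 with mean pileup as the height, −0.11 with the trend by height removed and −0.04 without centring. By the first and second of these settings the myeloid markers were lower, at −0.11 and −0.23 in that order. NLRC5, the transactivator of these genes, had 2 regions with a median of −0.32. HLA-G had a median of −0.30 over 2 regions, 1 of them above 0. In the empty vector pair the medians were 0.24 for NLRC5 and 0.54 for HLA-G. No region of the list passed 2-fold in either direction, and the empty vector pair gave −0.04 for the whole list. For MHC class II genes the median was −0.02 over 18 regions, which turned to 0.09 without centring.

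Plasma cell factors and surface genes had a median of −0.03 over 123 regions, which turned to 0.08 without centring, and 5 of these 123 regions were 2-fold higher and 0 were 2-fold lower, where 1.59% of all shared distal regions were 2-fold higher and 0.548% lower. XBP1, the transcription factor of the secretory programme, had 3 of 3 regions below 0, with 17, 19 and 22 fragments in the IFN-prefixed PHF19 library against 24, 26 and 33 in the PHF19 library in the same order. Each of the 3 intervals includes 0, and the empty vector pair also had 3 of 3 below 0. JCHAIN, the joining chain of polymeric immunoglobulin, had −0.36, and 0.10 in the empty vector pair. ELL2, an elongation factor that favours secreted immunoglobulin, had 3 of 3 above 0, and its highest region, at chr5:95870035-95871062, had 43 fragments in the IFN-prefixed PHF19 library and 18 in the PHF19 library (log2 ratio 1.30, interval 0.47 to 2.18). In the empty vector pair 1 of the 3 ELL2 regions was above 0, with a median of −0.12. SLAMF7, a surface receptor of plasma cells, had 0.16 over 2 tall regions.

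B cell identity genes had a median of 0.08 over 104 regions, with LYN, a Src-family kinase, at 0.28 over 8 regions with 6 above 0, and BLK, a related kinase, at −0.22 over 6. NF-kappaB and TNF receptor genes had 0.09 over 63. NFKBIA, the inhibitor of NF-kappaB, had 0.55 and IKBKB, a kinase of that inhibitor, 0.77 over 2 regions each, and TNFAIP3, a deubiquitinase that dampens the pathway, −0.21 over 7 with 2 above 0. The IL6, IL21 and JAK-STAT3 list had 0.09 over 63 regions, and IL6 itself, a myeloma growth factor gene, had 3 of 5 above 0 with a median of 0.43. TRAF3, a brake on NF-kappaB that myelomas often lose, had 4 of 5 above 0 and a median of 0.54 in the list of myeloma oncogenes and tumour suppressors, whose median was 0.00, or −0.02 with the trend by height removed.

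Polycomb genes, the complexes PHF19 works with, had a median of 0.04 over 73 regions, which turned to −0.07 with only the 42 regions inside the genes and to −0.003 with mean pileup as the height. MTF2, another Polycomb-like protein, had 0.42 over 2 regions, one of which had 56 fragments in each PHF19 library. PHF19 itself had 4 distal regions with a median of −0.20, 3 of them below 0, and the empty vector pair gave −0.16. The largest of these differences was at chr9:120875920-120877569, with 109 fragments in the IFN-prefixed PHF19 library and 166 in the PHF19 library (log2 ratio −0.57, interval −0.93 to −0.21). Developmental transcription factors, typical Polycomb targets, had a median of 0.04 over 179 regions, with 3 past 2-fold higher and 1 past 2-fold lower, shares near the 1.59% and 0.548% of all shared distal regions. Among them SOX5 had 4 of 5 above 0 with a median of 0.50, and TBX2 had −0.40 over 2.

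**Figure D5:**
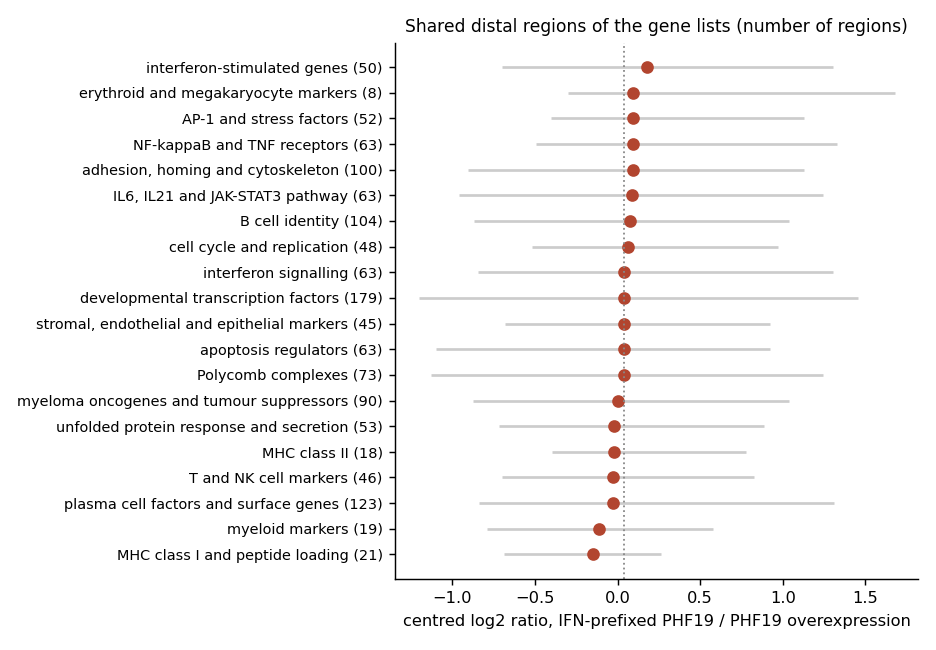
Median centred log2 ratio (points) and the range from the lowest to the highest region (bars) for the shared distal regions of the 20 gene lists, with the number of regions in brackets; the dotted line is the median of all shared distal regions, 0.04. Medians run from −0.15 for MHC class I and peptide loading genes to 0.18 for interferon-stimulated genes, and the ranges of all lists overlap.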

How the data were processed

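Chromatin accessibility was measured by ATAC-seq in AMO1 cells, with 1 library in each of 4 groups taken from the labels. After transfection with a PCDH vector, cells were treated with DNase I and lysed and their nuclei tagged with Tn5, per the labels. The authors called peaks library by library with MACS2 2.1.2 without a control library, on paired fragments, at a q-value of 0.01, keeping duplicates and several summits per peak, per the file headers. These also give an effective genome size of 3000000000. Build hg38 and the tools bcl2fastq 2.17, Trimmomatic 0.38 and DiffBind come from the submitters' processing notes. Which aligner and filters were used, and whether Tn5 cut sites were shifted, is not given in the sources used here. Pileup, as deposited, is a signal: the coverage by fragments at a summit, which the file headers leave unscaled. Each peak's −log10 p-value, −log10 q-value and fold enrichment over local background (a ratio) were deposited by the authors and served within a list only.

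Overlapping peaks of the 2 lists were merged on chromosomes 1 to 22, with an overlap of 1 bp enough. Regions more than 2500 bp from both ends of the 19122 protein-coding genes of a RefSeq table on GRCh38.p14, the same build, were kept. That table has no strand or exons, so exons and introns are not told apart. Height was the largest pileup per M (mega) fragments, and the median log2 ratio of all shared regions, those where each list has a peak, was subtracted. Intervals are exact 95% intervals for a ratio of 2 counts; shares carry 95% Wilson intervals. They cover counting error only, because there is 1 library per group. Duplicates were kept, so fragments may not be independent and the intervals of ratios may be too narrow. With 1 library per group no test was run and no p-value is given.

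The members and the 20 gene lists were chosen with earlier results of these data known. The genes named were PHF19; per direction the 10 genes with the largest median among those with at least 3 shared distal regions, a mean height of at least 1 per M and 3 in 4 regions on that side; per direction the 8 regions whose interval bound lay farthest from 0 and the 6 tallest regions with a peak in 1 library alone; the 8 genes with the most distal regions; and up to 2 members of a list per direction with at least 2 shared distal regions. Loci with a LOC symbol and read-through genes were not named, and some items picked by these rules are not reported here. Non-coding starts and miRNAs shown with a sequence were chosen after their values were seen. Alternatives changed the distance, the peak threshold, the overlap, the list length, the height measure, the centring, local and height trends, the height filter, the fold and the assignment of regions to genes. Steps ran in Python 3.11.15 with pandas 2.3.3, numpy 2.4.6, scipy 1.17.1 and matplotlib 3.10.9 and were tested on simulated data.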

Additional observations from a re-analysis of the deposited data

How the results depend on the processing

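No paired analysis was possible because each group has 1 library and the labels give no replicate numbers. At each setting more shared distal regions passed the fold rule on the higher side than on the lower. No median over all shared distal regions and no named region changed sign. The medians of gene lists that changed sign are given with the lists. The main values were 400 shared distal regions 2-fold higher with the IFN prefix and 138 lower, a median of 0.04 and a distal minus gene-end difference of 0.093. They also include 6354 regions of the IFN-prefixed PHF19 library alone and 4848 of the PHF19 overexpression library alone. By gene they were 46 genes at a median of 0.5 or more and 10 at −0.5 or less. A −log10 q of at least 5 gave 164 higher, 43 lower and a median of 0.048. It left 5534 regions of the IFN-prefixed PHF19 library alone and 3182 regions of the PHF19 overexpression library alone. A 50% overlap gave a median of 0.0406. Lists of equal length gave 91 lower and a median of 0.0352. They gave nearly equal numbers called in 1 library alone, 5360 for the IFN-prefixed PHF19 library and 5354 for the PHF19 library. The mean pileup over summits gave a median of 0.0375 and 16 genes at −0.5 or less. Without centring there were 674 higher, 82 lower, a median of 0.15, and 105 and 2 genes; centring on gene ends gave a median of 0.093 and removing the local median one of 0.0324. With the height trend removed there were 271 higher and 227 lower, a median of 0.0095, a distal minus gene-end difference of 0.032 and 16 genes at −0.5 or less. A mean height of at least 1 per M left 264 higher and 77 lower, fewer because fewer regions enter, and a 1.5-fold rule counted 2261 higher and 1123 lower, as a looser rule must. For the rest the cause was not tested. Distances of 10000 and 1000 bp moved none of these values beyond 1.5 times. Of the alternatives' values for the gene lists 89 of 100 stayed within the range allowed for the main value and 11 moved. Of those for the named genes 79 of 80 stayed, and of those for the named regions 64 of 64. The range was an interval of the median for a list, the lowest to the highest region for a gene, and the counting interval for a region. For most genes and regions it is wide beside the shifts the settings make, so staying within it says little.

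Depth limits the low regions: the lowest summits had 8 fragments in both PHF19 overexpression libraries, so a ratio between such regions carries an interval wider than a 2-fold difference. Peak lists give no value where no peak was called, so a region called in 1 library alone has no height for the other. The chromatin of a single library per group also carries its own preparation, which cannot be told apart from the group.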

Other observations

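Of the remaining gene lists, all but the myeloid markers had medians between −0.03 and 0.09, where all placed distal regions had 0.04. Adhesion, homing and cytoskeleton genes had a median of 0.09 over 100 regions, and FYB1, an adaptor of lymphocyte adhesion, had 3 of 3 regions above 0 with a median of 0.62, and 0.54 in the empty vector pair. AP-1 and stress factors had 0.09 over 52 regions, with KLF4 at 0.49 over 3. Cell cycle and replication genes had 0.06 over 48, and stromal, endothelial and epithelial markers had 0.04 over 45. Unfolded protein response and secretion genes had −0.02 over 53 regions, which turned to 0.09 without centring. EDEM1, a factor of endoplasmic reticulum-associated degradation, had −0.50 over 3 regions, and EIF2AK3, the stress kinase PERK, had 0.21 over 4. Apoptosis regulators had 0.04 over 63 regions, with 0 past 2-fold higher and 3 past 2-fold lower, where 1.59% of all shared distal regions were higher and 0.548% lower. BCL2A1, a survival factor of the BCL2 family, had −0.78 over 2 regions, with 14 and 14 fragments in the IFN-prefixed PHF19 library against 29 and 21 in the PHF19 library. BCL2L11, the pro-apoptotic BIM, had −0.43 over 2, and FAS, a death receptor, had 4 of 4 above 0 with 0.41.

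Markers of other cell types were not all low: the median height of shared regions was 3.42 per M in the IFN-prefixed PHF19 library and 2.58 per M in the PHF19 library for erythroid and megakaryocyte markers. For stromal, endothelial and epithelial markers it was 2.57 per M in the IFN-prefixed PHF19 library and 2.14 per M in the PHF19 library, while all shared distal regions had 1.89 per M in the IFN-prefixed PHF19 library and 1.65 per M in the PHF19 library. T and NK cell markers had 65 distal regions, 46 of them shared, with a median log2 ratio of −0.03, which turned to 0.09 without centring, and a median height of 1.68 per M in the IFN-prefixed PHF19 library and 1.62 per M in the PHF19 library. Myeloid markers had a median log2 ratio of −0.11 over 19 regions, which turned to 0.00 without centring and was −0.23 with the trend by height removed, and erythroid and megakaryocyte markers had 0.09 over 8. Of these 8 regions 4 were those of TFRC, so the height of that list rests on few regions and largely on 1 gene.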
